A study of Mus musculus with 4 samples.

Results

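Imprinted genes are transcribed mainly from the copy inherited from 1 parent, and many of them act on embryonic growth. The genes described here are 10 imprinted genes of the mouse, Meg3, Rian, Mirg, Dlk1, H19, Cdkn1c, Peg3, Plagl1, Mest and Grb10, each read at every probe set that the platform annotation assigns to that gene alone. A probe set is a group of short array probes that together report 1 transcript. The rule gave 32 probe sets of the 45101 on the array, covering 9 of the 10 genes. The single probe set that names H19 also names the microRNA gene Mir675 and was not analysed here. The genes were chosen because Meg3 was higher in mutant kidneys at some probe sets. Differences between mutant and wild-type kidneys at these probe sets are therefore given as a description, without p-values.

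The arrays were Affymetrix Mouse430_2 arrays of whole kidneys at stage E14.5 (Theiler stage 22), 2 of wild-type kidneys and 2 of kidneys carrying the null allele Wnt4tm1Amc. Wnt4 is the secreted signal by which kidney mesenchyme forms the renal vesicle, the earliest epithelium of the nephron, and the study used its loss to find transcripts of the vesicle and of later nephron stages. Each wild-type array held RNA of 2 pooled kidneys and each mutant array RNA of 12. The strain field reads CD-1 for wild-type and 129 for mutant kidneys, although 1 protocol text describing CD-1 matings is attached to every sample. Genotype, stated strain and pool size cannot be told apart as sources of any difference. The sex of the embryos is given as unknown, and no label says whether the pools came from separate litters, so the spread between arrays may be partly technical.

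Meg3, Rian and Mirg are long noncoding RNAs that lie in this order in 1 imprinted domain on chromosome 12 and are expressed from the maternal chromosome. Dlk1, just before them, is expressed from the paternal chromosome and encodes a transmembrane protein related to Notch ligands that is known for holding back differentiation. Peg3 and Plagl1 encode zinc finger proteins and Mest a protein of the hydrolase family, all from the paternal copy. Cdkn1c, which encodes the cyclin-dependent kinase inhibitor p57, and Grb10, an adaptor protein that restrains insulin and growth factor receptor signalling, are mainly maternal in most embryonic tissues.

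The noncoding RNAs of the domain are known as sources of microRNAs. In RefSeq's tables of build GRCm38.p6, mature microRNAs on the same strand lie inside the bounds of Meg3 (3 sequences), Rian (6) and Mirg (19). The following are shown because they say what the measured transcripts can carry, with the seed, bases 2 to 8, in capitals. The first comes from within Meg3, the second from within Rian and the others from within Mirg. The microRNAs themselves were not measured.
miR-770-5p: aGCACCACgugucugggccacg
miR-370-3p: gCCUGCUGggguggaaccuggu
miR-453: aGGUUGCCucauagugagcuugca
miR-496a-5p: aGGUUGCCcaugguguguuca
miR-154-5p: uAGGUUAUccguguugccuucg
miR-410-3p: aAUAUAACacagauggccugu
Among the 28 sequences in the 3 genes, miR-453 and miR-496a-5p alone shared a full seed.

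The promoters of Meg3 and Peg3 are shown because both genes had probe sets with a higher signal in the mutant and because both windows hold the cyclic AMP response element TGACGTCA, in capitals. Each window runs from 250 bases before to 50 bases after an annotated transcript start in RefSeq's table of build GRCm38.p6. The Meg3 window is chr12:109540746-109541045 on the plus strand and the Peg3 window chr7:6730370-6730669 on the minus strand.
Meg3: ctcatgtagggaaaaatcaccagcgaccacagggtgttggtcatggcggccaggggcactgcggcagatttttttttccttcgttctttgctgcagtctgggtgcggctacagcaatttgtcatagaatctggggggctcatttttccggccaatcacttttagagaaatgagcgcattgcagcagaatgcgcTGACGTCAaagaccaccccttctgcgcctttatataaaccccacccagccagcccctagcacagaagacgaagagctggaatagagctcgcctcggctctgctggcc
Peg3: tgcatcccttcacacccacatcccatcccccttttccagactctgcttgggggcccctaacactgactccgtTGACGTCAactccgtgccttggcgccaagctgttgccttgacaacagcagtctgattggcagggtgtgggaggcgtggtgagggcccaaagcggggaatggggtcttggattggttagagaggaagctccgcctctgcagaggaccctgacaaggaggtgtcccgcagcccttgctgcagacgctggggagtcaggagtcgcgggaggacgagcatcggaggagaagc
The element begins at -57 in the Meg3 window and at -178 in the Peg3 window, counting the start as 0. It reads the same on both strands, and 1.79% of the 32817 windows of this length in the table hold it. It was searched for after it had been seen in these sequences. Of the 12 windows matched to 8 of the genes, these 2 held it, and a second Meg3 window did not. Dlk1, Mirg and Plagl1 also had a probe set with a higher signal in the mutant, and their windows did not hold it. A link between the element and the signal was not tested. The motif CTTTGAT, a core of TCF/LEF sites, searched on both strands, was found in 0 of the 12 windows and in 3.73% of all windows.

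On the arrays, deposited signals were compared as log2(signal + 16) with limma, fitted over the 27022 probe sets left after the lowest 40% by mean level were removed, and a probe set passed at a Benjamini-Hochberg adjusted p under 0.05. Of the 32 probe sets, 28 were tested. In the mutant 10 of the 28 were higher and 0 lower. At an unadjusted limma p under 0.05 the counts were 13 higher and 0 lower. Over all tested probe sets 5.41% were called higher and 5.39% lower. Because the genes were picked on this contrast, nothing is read from that difference in shares. The 10 belonged to Meg3 (5), Peg3 (2), Mirg (1), Dlk1 (1) and Plagl1 (1). Both mutant arrays lay above both wild-type arrays at 14 of the 28, against 26.1% of all tested probe sets, and below them at 2, against 28.0%, so that the groups were apart at 16 of the 28, against 54.1% of all. The median log2 difference was 0.32 over the 28 and -0.01 over all tested probe sets. Without limma's intensity trend 6 of the 10 calls were lost, and Meg3 at 3 probe sets and Mirg at 1 kept theirs. Over all tested probe sets 425 were then called higher and 433 lower, against 1463 and 1457 with the trend. Wnt4 itself fell from 1827 ± 81.3 (SD, n = 2) to 339 ± 95.1 at its brighter probe set, a log2 difference of -2.40 ± 0.18 (SE) with a limma adjusted p of 0.000196.

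Meg3 had 11 probe sets, and they fell into groups that behaved very differently. At 1452905_at the signal was 182 and 195 in the wild-type pools and 2831 and 4153 in the mutant pools. The mutant arrays were both far above the wild-type ones, a log2 difference of 4.07 ± 0.18 (SE), or 16.8-fold. This was the widest gap among the 28 tested probe sets. At 1436713_s_at the signal was 264 and 354 in wild-type and 1076 and 1295 in mutant kidneys, a 3.71-fold difference (log2 1.89 ± 0.17).

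The brightest Meg3 probe set was 1439380_x_at, with 2506 and 2203 in the wild-type pools and 5557 and 7470 in the mutant pools. Its log2 difference was 1.45 ± 0.14, or 2.73-fold. Probe set 1452183_a_at read 1568 and 1058 in wild-type and 3316 and 4233 in mutant kidneys, 2.88-fold higher (log2 1.53 ± 0.18). At 1426758_s_at the wild-type arrays were 1103 and 498, a wide spread, while the mutant arrays were 1789 and 1976. Its log2 difference of 1.32 ± 0.30 stood closest to the threshold from the inside. It was 0.76 without wild-type replicate 2 and 1.88 without wild-type replicate 1, and the call was lost without mutant replicate 2. Probe set names ending in _s_at or _x_at mark probes that may match more than 1 transcript, and 3 of these 5 carry such a name.

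The other 5 tested Meg3 probe sets did not pass. At 1428765_at the wild-type arrays read 116 and 148 and the mutant arrays 222 and 166, a log2 difference of 0.50 ± 0.27 and the nearest outside the threshold among the Meg3 probe sets. At 1436057_at, 1429256_at, 1428764_at and 1429257_at the groups overlapped, with log2 differences from -0.08 to 0.24. All 5 were dim, with array signals between 116 and 417. On the wild-type arrays 1452905_at (182 and 195) and 1436713_s_at (264 and 354), which passed, were in the same range. The eleventh, 1452906_at, read 19.4 to 29.9 on the 4 arrays and was below the level that was tested.

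The split ran through probe sets designed from the same transcript record. Probe sets 1452905_at, 1428764_at and 1428765_at share 1 source record in the annotation, yet the first differed 16.8-fold and 1428764_at read 173 and 167 in wild-type and 149 and 230 in mutant kidneys. On the wild-type arrays alone the 3 were all between 116 and 195. By contrast, both probe sets of another record, 1426758_s_at and 1452183_a_at, passed, and neither did of a pair from a further record, 1429256_at and 1429257_at. Where each probe set lies along the Meg3 transcripts, and whether the strains differ in the probed sequence, was not analysed here. The mean of the log2 values over all 11 probe sets was 1.02 ± 0.15 higher in the mutant. By this mean over a gene's probe sets, dim ones included, Meg3 and Mirg (0.76 ± 0.14) passed. Dlk1 (0.52 ± 0.25), Peg3 (0.39 ± 0.12) and Plagl1 (0.35 ± 0.12), each with at least 1 probe set past the threshold, did not.

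**Figure D1:**
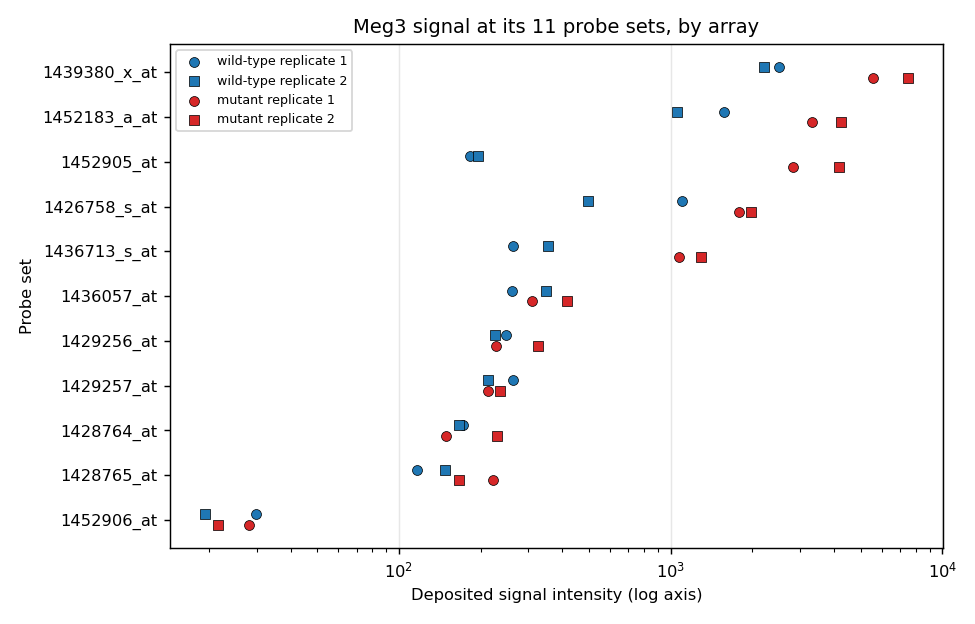
Deposited signal of Meg3 at each of its 11 probe sets (rows, log horizontal axis) on the 4 arrays, with wild-type arrays in blue and mutant arrays in red and replicates 1 and 2 as circles and squares. At 5 probe sets the red points stand well to the right of the blue ones, most of all at 1452905_at, where 182 and 195 face 2831 and 4153. At the other probe sets the groups mostly overlap.

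The neighbouring noncoding RNAs did not all follow. Mirg, the microRNA host at the far end, read 357 and 303 in the wild-type pools and 668 and 804 in the mutant pools at 1457030_at, a log2 difference of 1.12 ± 0.16, or 2.17-fold. At its second probe set, 1440097_at, the wild-type arrays were 335 and 387 and the mutant arrays 436 and 527. The groups did not overlap there either, but the difference of 0.40 ± 0.17 did not pass.

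Rian, the host of small nucleolar RNAs that lies between Meg3 and Mirg, had no probe set past the threshold. Its brightest, 1452899_at, read 619 and 416 in wild-type and 451 and 422 in mutant kidneys, a difference of -0.21 ± 0.20. At 1427580_a_at the groups also overlapped (-0.07 ± 0.20). At 1440001_at the mutant arrays, 88.0 and 138, both lay below the wild-type ones, 162 and 143, but the difference of -0.41 ± 0.30 was close to its error. The fourth, 1428055_at, read 10.4 to 19.9 and was not tested.

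Dlk1, the paternally expressed gene before Meg3, read 6787 and 4425 in the wild-type pools and 9812 and 10615 in the mutant pools at 1449939_s_at. The lowest mutant array was above the highest wild-type one, and the log2 difference was 0.90 ± 0.17, or 1.86-fold. The wild-type arrays stood 0.62 apart on the log2 scale at this probe set, and the difference was 0.59 without wild-type replicate 2 and 1.20 without wild-type replicate 1. The other Dlk1 probe set, 1442724_at, was dim and overlapped, with 177 and 74.8 in wild-type and 114 and 147 in mutant kidneys (0.14 ± 0.39).

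Of the 8 genes listed for this domain, in the order Wdr25, Begain, Dlk1, Meg3, Rtl1, Rian, Mirg and Dio3, 5 were tested. Wdr25, at the edge before Begain, read 261 and 286 in wild-type and 223 and 247 in mutant kidneys and did not pass (log2 difference -0.20). Begain, Rtl1 and Dio3 were not analysed here. Within the domain, then, Dlk1, Meg3 and Mirg had at least 1 probe set past the threshold, and Rian and Wdr25 had none.

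Among the zinc finger genes, Peg3 was higher in the mutant at 2 of 3 tested probe sets. At 1433924_at, the brightest, the wild-type arrays read 7919 and 6297 and the mutant arrays 10543 and 11393, a log2 difference of 0.63 ± 0.11 (1.55-fold) that did not pass without mutant replicate 2. At 1417356_at they read 3209 and 2755 against 4593 and 5483, a difference of 0.75 ± 0.11 (1.68-fold). The third, 1417355_at, has the same source record as the second, but its groups overlapped. Wild-type replicate 2 read 3090 there and mutant replicate 1 read 3065, and the difference of 0.46 ± 0.20 did not pass. It was 0.80 and passed without wild-type replicate 2, was 0.12 without wild-type replicate 1, and passed with the replicate number as a block. A further pair of Peg3 probe sets read between 1.64 and 12.6 and was not tested.

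Plagl1, which encodes a zinc finger factor known to regulate other imprinted genes, was higher in the mutant at 1 of 3 tested probe sets. At 1450533_a_at the wild-type arrays read 873 and 578 and the mutant arrays 1344 and 1335, a log2 difference of 0.90 ± 0.18 (1.87-fold). At the far brighter 1426208_x_at the groups overlapped, with 14175 and 11694 in wild-type and 13061 and 14644 in mutant kidneys (0.10 ± 0.11). The value there was 0.30 with quantile normalization, still without passing, 0.24 without wild-type replicate 1 and -0.04 without wild-type replicate 2. The dim 1438588_at also overlapped (0.06 ± 0.23).

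**Figure D2:**
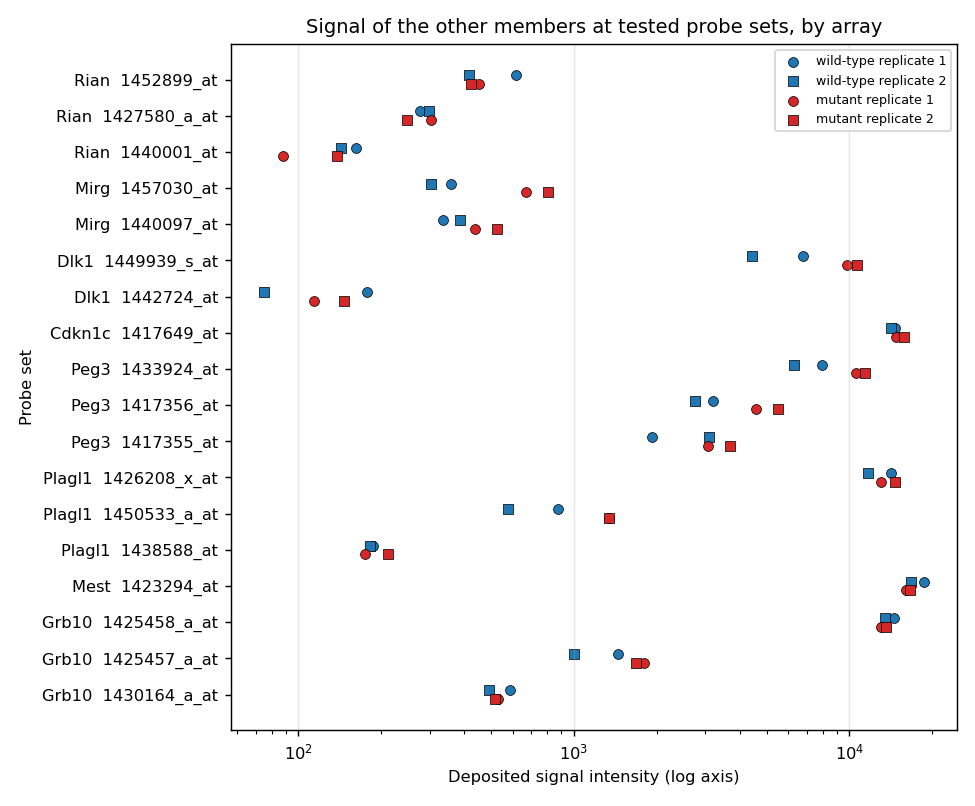
Deposited signal at the 18 tested probe sets of the 8 other genes with values (rows, log horizontal axis), with wild-type arrays in blue and mutant arrays in red and replicates 1 and 2 as circles and squares. Red points lie clear of the blue ones for Mirg 1457030_at, Dlk1 1449939_s_at, Peg3 1433924_at and 1417356_at and Plagl1 1450533_a_at, while the brightest probe sets of Cdkn1c, Mest and Grb10 sit close together.

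The growth inhibitor Cdkn1c read 14613 and 14189 in the wild-type pools and 14695 and 15734 in the mutant pools at its only probe set. Both mutant arrays were above both wild-type ones, but the lowest mutant and highest wild-type values nearly met, and the difference of 0.08 ± 0.08 did not pass. With quantile normalization it was 0.30 and passed. Podocytes, the filtering cells of the glomerulus, are known to express Cdkn1c. On the same arrays 6 of the 9 tested podocyte markers fell, Podxl by 1.98 and Ptpro by 1.87 on the log2 scale (limma, at the threshold above), where 5.82% of all genes at 1 probe set each were lower. The summed signal of the 9 was 15011 and 15039 in wild-type and 10766 and 10617 in mutant kidneys. The part of this in the Cdkn1c value was not tested.

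Grb10 did not pass at any of its 3 probe sets with all 4 arrays and no replicate block. At the brightest, 1425458_a_at, the signals were 14506 and 13429 in wild-type and 13013 and 13594 in mutant kidneys (-0.07 ± 0.08). At 1425457_a_at, from the same source record, the wild-type arrays read 1450 and 1000 and the mutant arrays 1797 and 1687. The groups did not overlap there, and the difference was 0.53 ± 0.16. It was 0.79 and passed without wild-type replicate 1, was 0.26 without wild-type replicate 2, and passed with the replicate number as a block. At 1430164_a_at the difference was -0.04 ± 0.15.

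Mest read 18702 and 16662 in the wild-type pools and 16043 and 16559 in the mutant pools. Both mutant arrays were below both wild-type arrays, by a log2 difference of -0.11 ± 0.08 that did not pass. The direction of these bright probe sets is not settled, since quantile normalization gave 0.14 for Mest and 0.15 for Grb10 at 1425458_a_at.

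**Figure D3:**
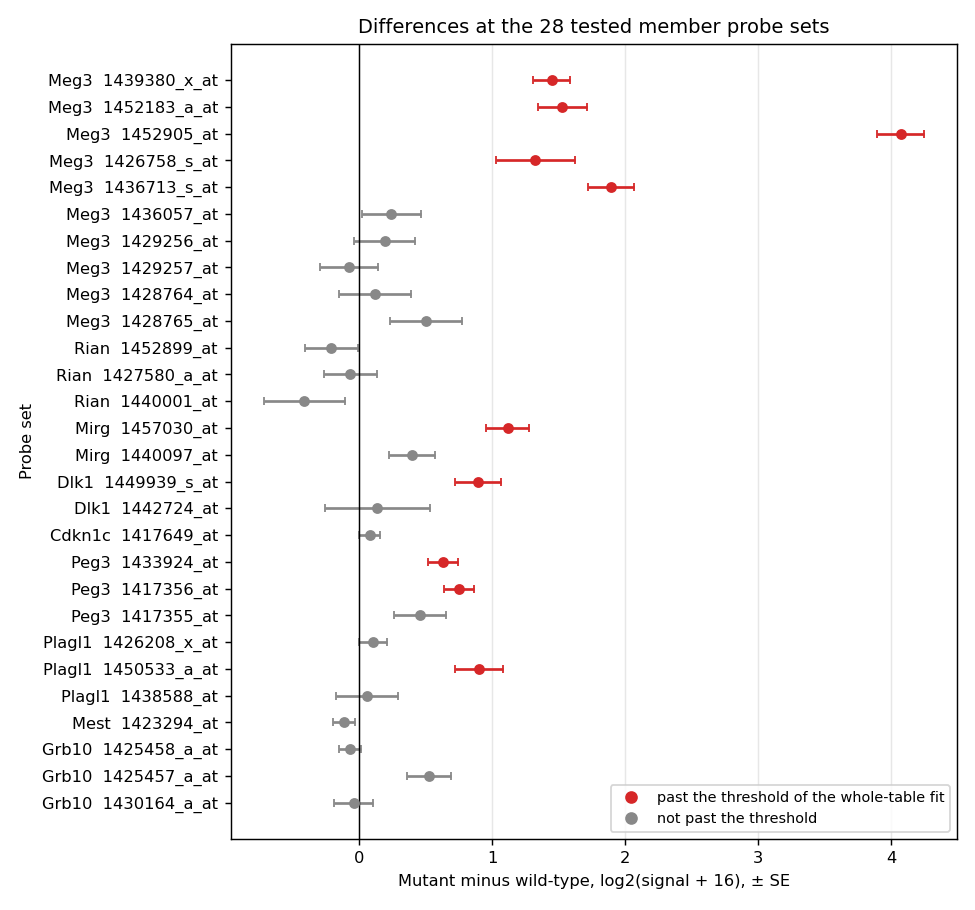
Difference between mutant and wild-type kidneys, as mutant minus wild-type log2(signal + 16), at the 28 tested probe sets (rows), with bars for the limma standard error. Red marks the 10 probe sets past the threshold of the fit over all probe sets, which run from 0.63 for Peg3 1433924_at to 4.07 for Meg3 1452905_at, and grey marks the other 18.

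By parental origin, the 5 measured genes expressed from the maternal copy had 6 of 19 tested probe sets higher, and the 4 expressed from the paternal copy had 4 of 9. Over all tested probe sets 5.41% were higher. The median log2 differences were 0.24 and 0.46, against -0.01 over all tested probe sets. Because the genes were picked on this contrast, nothing about parental origin is read from these values. Of the 6 maternal calls, 5 were of Meg3 alone, and probe sets of 1 gene are not independent. The probe sets past the threshold belonged to both maternally and paternally expressed genes of the domain on chromosome 12, and to paternally expressed genes elsewhere.

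The wild-type arrays did not sit evenly at these probe sets. Replicate 1 was above replicate 2 at 21 of the 28, against 51.0% of all tested probe sets, and at 8 of the 10 past the threshold. Mutant replicate 2 was above mutant replicate 1 at 22 of the 28, against 54.4% overall. The median distance between the wild-type arrays was 0.26 on the log2 scale over the 28 and 0.18 over all tested probe sets, and between the mutant arrays 0.26 and 0.15. At the 10 probe sets past the threshold the lower mutant array exceeded the higher wild-type array, by at least 0.41 as a log2 ratio of signals. These probe sets were called on this same contrast, so nothing is read from that gap.

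Markers of other cells moved on the same arrays. Of 19 tested stroma markers 12 rose, where 6.70% of all genes at 1 probe set each were higher. The stroma median was 0.56 on the log2 scale. Their summed signal was 93914 and 88598 in wild-type and 126051 and 127929 in mutant kidneys. Foxd1, the forkhead factor of the cortical stroma, rose from 2211 ± 258 to 6826 ± 158 (limma adjusted p = 7.39e-05), and Pdgfra, a growth factor receptor of mesenchyme, from 2384 ± 33.6 to 6697 ± 220 (adjusted p = 5.52e-05). Others on the stroma list, such as Tcf21 (log2 difference -0.16), Pdgfrb (-0.07) and Col1a1 (0.30), did not pass. Of 12 tested skeletal muscle markers 9 rose, with a median of 1.59 and summed signals of 3260 and 2053 against 9774 and 9584. The list held 16 genes, and those too dim over the 4 arrays were not tested. Myog and Myl1, with wild-type means of 83.2 and 73.1, were below 94.2, the lowest mean level tested. They were tested only because of their mutant signals, which favours a rise in the count and the median. Actc1, a striated muscle actin, went from 646 ± 97.3 to 4076 ± 264 (adjusted p = 3.07e-05). Myf5, a defining muscle regulator, read 2.18 to 25.7 on the 4 arrays and was not tested. Whether stromal or muscle cells took part in the higher Meg3, Dlk1, Mirg, Peg3 and Plagl1 values was not tested. In whole kidneys, more cells of a type and more RNA per cell cannot be told apart.

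Markers of nephron cells went the other way, with all 7 tested markers of the early nephron, Wnt4 among them, lower and a median of -1.90. Over all genes at 1 probe set each, 5.82% were lower and 6.70% higher. Of 4 tested adrenal markers, 1, the corticotropin receptor gene Mc2r, fell by 1.36. Its mutant mean, 64.5, was below 94.2, the lowest mean level tested. Star (-0.31), Cyp11b1 (0.41) and Cyp11a1 (0.19) did not pass, and the median of the 4 was -0.06. Their summed signals were 714 and 714 in wild-type and 562 and 617 in mutant kidneys. The adrenal gland, known for high Dlk1, lies next to the kidney. Nr5a1, the factor that defines adrenal cortex, read 57.1 to 78.5 in wild-type and 15.8 to 37.5 in mutant kidneys and was not tested. Of 5 tested erythroid markers 3 rose, the embryonic globin genes Hba-x (log2 difference 2.16), Hbb-y (1.08) and Hbb-bh1 (2.65). The wild-type mean of Hbb-bh1, 83.5, was below 94.2, the lowest mean level tested. Hbb-bh1 was tested only because of its mutant signals, which favours a rise in the count. The others, such as Alas2 (0.30), did not pass. The summed signals of the 5 were 10175 and 9972 against 22745 and 23796. Most of that sum was Hbb-y, with means of 7899 in wild-type and 16692 in mutant kidneys.

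The named genes whose 4 values were most like those of Meg3 at 1439380_x_at, by the smallest Euclidean distance of log2 values centred on each gene's mean, were Fbxo32, Tnni1, Smoc2, Slc8a1 and Fbln2. Tnni1 encodes a troponin of slow muscle and is on the skeletal muscle list, and Smoc2 encodes a matrix protein and is on the stroma list. Their log2 differences ran from 1.26 for Fbln2 to 1.58 for Tnni1. With 2 arrays a group, many genes with a difference of this size take a similar shape, so this is a description of 4 values.

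Imprinted genes other than the 10 were read from a list of 62, of which 47 were tested at 1 probe set each. Some of these are known to be imprinted only in certain tissues, such as placenta. In the mutant 4 rose and 3 fell. That is a share close to the 12.5% of all genes called in either direction. The median log2 difference of the 47 was 0.08, against 0.00 over all tested genes, and 25 of the 47 lay within 0.2 of 0.

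Nnat, which encodes the small membrane protein neuronatin, read 3261 and 3666 in wild-type and 6582 and 5815 in mutant kidneys, 1.79-fold higher with a limma adjusted p of 0.00163. Blcap, whose locus contains Nnat, read 917 and 754 against 1341 and 1126 (1.47-fold, adjusted p = 0.0412). Dcn, the matrix proteoglycan decorin, which is also on the stroma list, read 3872 and 3877 against 5720 and 5701 (1.47-fold, adjusted p = 0.00350). The amino acid carrier gene Slc38a4 read 1366 and 1424 against 1735 and 1952 (1.32-fold, limma adjusted p = 0.0447). Dcn had 2 tested probe sets, of which 1 was higher, and Slc38a4 had 2, which were both higher.

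The genes that fell were Cobl, Slc22a2 and Inpp5f. The mutant mean of Slc22a2, 77.7, was below 94.2, the lowest mean level tested. Slc22a2 was tested only because of its wild-type signals, which favours a fall. Inpp5f had 2 tested probe sets, of which 1 was lower. Cobl, an actin nucleator gene near Grb10, read 336 and 276 in wild-type and 143 and 78.8 in mutant kidneys (log2 difference -1.38 ± 0.30, limma adjusted p = 0.0243). Slc22a2, an organic cation carrier of tubules, read 178 and 192 against 75.1 and 80.3 (adjusted p = 0.0423), and Inpp5f 910 and 769 against 571 and 564 (adjusted p = 0.0375). These calls and those of Blcap and Slc38a4 were lost when some single arrays were left out: Slc22a2 without any 1 of the 4, Inpp5f without wild-type replicate 1 or either mutant array, Cobl without wild-type replicate 1 or mutant replicate 2, Blcap without wild-type replicate 2 or either mutant array, and Slc38a4 without wild-type replicate 1 or either mutant array. Nnat and Dcn kept their calls without any 1 array, but without the intensity trend their limma adjusted p was 0.0613 and 0.0873.

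Neighbours of the other described genes mostly did not pass. Igf2, the growth factor gene next to H19, read 17637 and 14178 in the wild-type pools and 13512 and 14951 in the mutant pools. The groups overlapped, and the log2 difference was -0.15 ± 0.11. It was 0.074 with quantile normalization and 0.0036 without wild-type replicate 1, so its direction is not settled. Of 9 tested genes in the cluster that holds Cdkn1c, counting Cdkn1c itself with Kcnq1, Phlda2, Slc22a18 and others, with differences from -0.49 to 0.52, 0 passed by limma, and 1, Cd81 (0.21, named after its value was seen), had an unadjusted p under 0.05. Beside Peg3, the genes Usp29, Zim1 and Zim3 differed by 0.18, -0.04 and 0.10 and did not pass. Copg2 and Klf14, listed with Mest, differed by -0.03 and 0.08, and Ddc, listed with Grb10, by -0.64, also without passing.

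**Figure D4:**
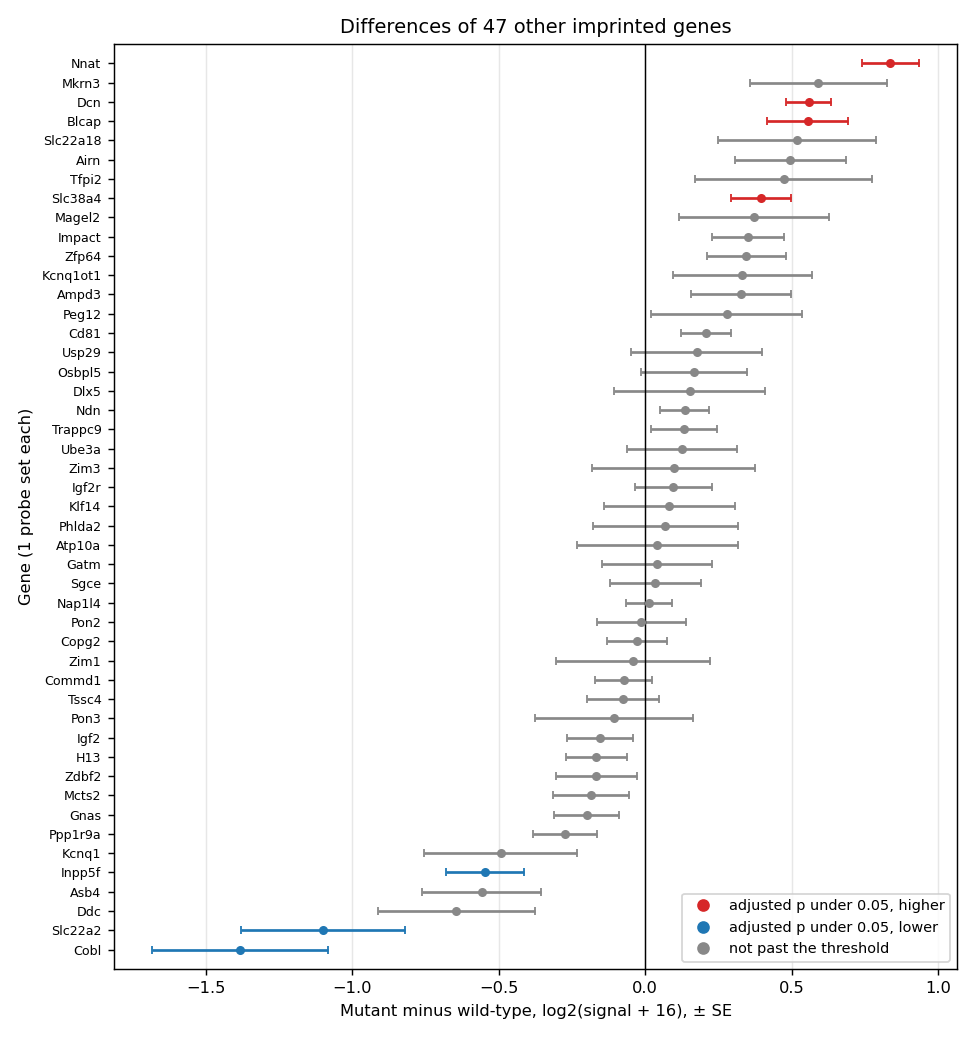
Difference between mutant and wild-type kidneys, as mutant minus wild-type log2(signal + 16), for 47 imprinted genes outside the 10, at 1 probe set each (rows), with bars for the limma standard error. The 4 genes in red (Nnat, Dcn, Blcap and Slc38a4) and the 3 in blue (Inpp5f, Slc22a2 and Cobl) passed the threshold, and the others in grey lie mostly near 0.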

How the data were processed

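The deposited values were signal intensities, linear, with 1 per array for each probe set. Per the submitters' processing notes the authors used GCOS, the scanner maker's software. Its version, how probes were summarised and the target of scaling: not given in the sources used here. With the lowest and highest 2% trimmed, the mean intensity was 500.0 on every array, and medians ran from 137.5 to 159.3, so the arrays had been scaled before deposit. The arrays are few, which limits precision, and the smallest two-sided p of an exact permutation of 2 against 2 is 0.33.

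Signals were taken to log2(signal + 16), which understates changes of dim probe sets, with no further normalization. The 64 control probe sets and the lowest 40% by mean level were left out, so the lowest mean level tested was a signal of 94.2. A 2-group model was fitted with limma 3.58.1 in R 4.3.3 (lmFit, eBayes with an intensity trend, two-sided, Benjamini-Hochberg), and it was tested on simulated data. Of 45101 probe sets, 34958 name 1 gene, 932 several and 9211 none in the platform annotation; 34754 matched RefSeq by identifier and 0 symbols changed. Genes outside the 10 were represented by their tested probe set with the highest mean.

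The members and lists were chosen with earlier results of these data known. All probe sets of the 10 genes were named, with Wnt4, Igf2, up to 12 other imprinted genes past the threshold, cluster neighbours, up to 4 genes per cell type list and the 5 genes most like Meg3. Myf5 and Nr5a1 were named as defining markers outside this rule. Of the cell type lists, those not given in the report were the endothelial list (4 of 9 tested genes lower), the nephron progenitor list (2 of 7 higher and 2 lower) and the neural list (1 of 3 lower). The lower neural gene, Fabp7, had a mutant mean of 90.7, below the lowest mean level tested. Alternatives were quantile normalization, median centring, pseudocounts of 1 and 64, no filter or a 60% filter, eBayes without a trend or robust, no _x_at or _s_at probe sets, a replicate block, gene means and leaving out each array.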

Additional observations from a re-analysis of the deposited data

How the results depend on the processing

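Of the 10 higher probe sets, 4 passed under every alternative run on them: Meg3 1452905_at, 1439380_x_at and 1436713_s_at and Mirg 1457030_at. Without the intensity trend 4 of the 28 were higher, and without _x_at and _s_at probe sets 6, since 4 of the 10 carry such names. Calls over all tested probe sets changed too. They were 1463 higher and 1457 lower in the main fit, 425 and 433 without the trend and 1003 and 988 with no filter. Without _x_at and _s_at probe sets they were 1334 and 1306. With 1 array left out the count was 8 to 11. Meg3 1426758_s_at did not pass without mutant replicate 2, with no filter, without the trend or in the robust fit. Peg3 1433924_at did not pass without mutant replicate 2 or without the trend. By limma's adjusted p, 0 of the 28 were lower under any of these alternatives. At an unadjusted p, 1 was lower without wild-type replicate 2 and 0 otherwise.

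Of the other imprinted genes, 2 were higher and 0 lower with no filter (unadjusted limma p under 0.05: 7 and 5), 0 higher and 1 lower without the trend (9 and 4), 1 lower with the lowest 60% left out, and 1 lower with gene means. With 1 array left out the counts were 2 to 3 higher and 0 to 4 lower; the 0 came without mutant replicate 2 (5 at unadjusted p), and the lower count was 1 without wild-type replicate 1 or mutant replicate 1. The sign of Igf2 turned with quantile normalization (0.074) and without wild-type replicate 1, and ran from -0.31 to 0.0036 with 1 array left out. The causes were not tested.

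The labels number the arrays 1 and 2 in both groups but do not say that a number pairs them, and deviations of same-numbered arrays correlated at -0.02. With the number as a replicate block, 12 member probe sets were higher (the 10 with Grb10 1425457_a_at and Peg3 1417355_at), 4 other imprinted genes were higher and 2 lower, and Wnt4 differed by -2.40. With 2 arrays a group, probe sets near the bottom of the scale have the least certain differences.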
